A study of Mus musculus with 12 samples.

Results

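The translation initiation and elongation factors of mouse embryonic stem cells were taken here as the genes whose symbol starts with Eif or Eef. The eIF2 subunits (Eif2s), the eIF2B subunits (Eif2b), the eIF2 kinases (Eif2ak) and pseudogenes were left out. The rule found 59 genes among the 22416 of the count table, and 55 of them passed the filter on low counts behind every test. Eif3j2, Eif4a3l1, Eif4a3l2 and Eif4e1b did not pass. Role lists were set by symbol, so a place in a list does not show that a gene has that role. The lists hold 7 genes for start codon selection, Eif1ad among them, 14 for eIF3, and 14 for the cap-binding complex eIF4F and related symbols. The eIF4F list takes in Eif4g2, Eif4e2 and Eif4a3 by symbol. A further 4 encode proteins that bind and inhibit eIF4E, and 3 are other initiation factors. The elongation side has 2 eIF5A genes, 6 genes of the eEF1 complex, eEF2 and its kinase, and 7 genes for methyltransferases of these factors and for the selenocysteine factor.

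RNA was sequenced from 4 groups of 3 libraries. KI LIF cells were homozygous for the A allele of eIF2α (A/A) and were kept for 6 days without serum in LIF, the leukaemia inhibitory factor. WT LIF cells had the +/+ genotype and the same medium. KI LIF/2i and WT LIF/2i cells were A/A and +/+ cells held for 6 days in LIF plus 2 inhibitors, the MEK inhibitor PD0325901 and the GSK3 inhibitor CHIR99021. The A allele replaces the serine of eIF2α that stress kinases phosphorylate with alanine. All groups shared the basal medium with KnockOut Serum Replacement, and RNA was taken from the cleared supernatant of cells lysed with cycloheximide, so RNA in the pellet was not measured. The labels do not say whether the A/A cells are 1 clone or whether the replicates are separate cultures. The spread behind every p-value is therefore that between these samples and may be technical. The study asked how phosphorylation of eIF2α bears on naive pluripotency.

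Library totals lay between 2307219 and 9713857 counts. In WT LIF, the counts of replicates 1 and 3 differed by no more than sampling noise (chi-square per degree of freedom 0.858 over 12373 genes). Their mean was used as 1 sample, so n = 2 for WT LIF and n = 3 for each other group. KI replicate 1 stood apart from KI replicates 2 and 3 in LIF, with 13 and 9.46 against 2.61 between replicates 2 and 3. In LIF/2i the 3 KI pairs had 26.1 to 40.2 and the other WT pairs, over both media, 9.92 to 13.8. Markers of embryonic stem cells summed to 2690 to 2750 CPM (counts scaled by library size and TMM factor) in KI LIF, 2260 to 2460 in WT LIF, 3510 to 4070 in KI LIF/2i and 3550 to 3780 in WT LIF/2i, with 8 of 8 above the count filter. The 8 fibroblast markers, 5 of them above the filter, summed to 122 to 192 CPM in KI LIF, 36.1 to 492 in WT LIF, 10.5 to 24.9 in KI LIF/2i and 4.13 to 6.38 in WT LIF/2i, with Lum at 0 in every sample of the fit. The 7 primitive endoderm markers, 6 above the filter, summed to 99.3 to 105, 297 to 387, 51.9 to 66.8 and 92.3 to 186 CPM in the same order of groups. In bulk RNA, fewer cells of a type and less RNA per cell cannot be told apart.

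Initiation in mammals starts when eIF4F, made of the cap-binding protein eIF4E, the scaffold eIF4G and the helicase eIF4A, brings an mRNA to a small ribosomal subunit that carries eIF3, eIF1, eIF1A and eIF2 with the initiator tRNA. The subunit scans to the start codon, eIF5 triggers GTP hydrolysis on eIF2, and eIF5B joins the large subunit. In elongation eEF1A delivers aminoacyl-tRNAs, the other eEF1 subunits recharge it with GTP, eEF2 moves the ribosome by a codon, and eIF5A eases peptide bond formation at difficult sequences. Phosphorylated eIF2 blocks its own recycling, which lowers general initiation, while mTOR controls eIF4E through the 4E-binding proteins and eEF2 through its kinase.

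Promoter sequence is shown for Eif1b, the start codon factor that differed most between genotypes by fold among the called genes, because its window holds a motif that many of these factors carry. RefSeq gives windows (GRCm38.p6) from 250 bases before to 50 bases after the start site, and 43 of the 59 factors matched a window by symbol, with 57 windows in all. Eif4g2 and Eif4e3 have none in that table. The letters CACGTG, known as an E-box and identical on both strands, stood in 16 of the 57 windows (28.1%), against 7.15% of all 32851 windows, and 14 of 43 factors held at least 1. In the Eif1b window (chr9:120492356-120492655, plus strand) the E-box, in capitals, begins 24 bases before the RefSeq start site. The counted transcript of Eif1b starts further upstream in GENCODE, at 120492491, so the E-box lies inside it. The window holds none of the other motifs searched.
Eif1b: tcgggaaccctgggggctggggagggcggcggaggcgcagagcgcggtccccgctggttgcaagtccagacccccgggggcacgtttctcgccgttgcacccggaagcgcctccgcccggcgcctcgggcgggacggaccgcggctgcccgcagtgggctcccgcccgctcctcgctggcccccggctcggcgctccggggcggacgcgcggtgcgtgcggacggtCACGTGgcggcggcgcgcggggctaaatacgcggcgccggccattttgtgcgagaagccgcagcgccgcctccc

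The 26 bases around the E-box are set side by side for both eIF5A genes, for eEF2 with its kinase, and for a cap-binding protein with its scaffold. They lie at chr11:69921445-69921470 (Eif5a, minus strand), chr3:28781150-28781175 (Eif5a2, plus), chr10:81176578-81176603 (Eef2, plus), chr7:120842790-120842815 (Eef2k, plus), chr3:138527194-138527219 (Eif4e, plus) and chr16:20672732-20672757 (Eif4g1, plus), with the E-box in capitals.
Eif5a: ggggcggggtCACGTGtgtgcgtcat
Eif5a2: gggcgagcttCACGTGacggggcggg
Eef2: ccggcgccgtCACGTGacgcacccaa
Eef2k: cggggacggcCACGTGagcccgggcg
Eif4e: acacgtccgtCACGTGggcaggagcc
Eif4g1: ctgcgccggtCACGTGgggcgctggc

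These genes were picked from the 14 factors with an E-box, so the pairs do not show whether partners tend to share it. Factors with an E-box had a median KI over WT log2 fold change in LIF/2i of 0.11 (n = 14), and tested factors with a window but no E-box 0.26 (n = 28). In LIF the medians were 0.14 and 0.06. Other motifs were searched on both strands. The ETS motif CCGGAAGT stood in 14% of the factors' windows and 3.89% of all windows, the CCAAT box CCAAT in 24.6% and 37.4%, the cyclic AMP response element TGACGTCA in 1.75% and 1.79%, and the ATF4 composite element TGATGNAAT in 0 windows of the factors and 0.965% of all. A match describes the letters in the window only.

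The 55 tested factors lay between 1.3 and 1460 CPM per kilobase of coding sequence, and the most abundant belonged to elongation, eIF3 and the eIF4G family. Eef1b2, the exchange factor subunit of eEF1, had the highest mean over groups at 1460 CPM per kilobase, followed by Eif4g2 at 962, Eef2 at 770 and Eif3k at 596. Eif4g2, also called DAP5, resembles eIF4G but lacks the part that binds eIF4E. It was above Eif4g1, the main scaffold of eIF4F, at 291, and Eif4g3 at 18. Per role list, the highest and lowest tested members were Eif1a (127) and Eif1b (32.3) in start codon selection, Eif3k (596) and Eif3j1 (1.34) in eIF3, Eif4g2 (962) and Eif4e3 (2.4) in eIF4F, and Eif4ebp2 (311) and Eif4ebp3 (29.3) among the eIF4E inhibitors, all in CPM per kilobase. On the same scale Eif2a (155) and Eif6 (105) bounded the other initiation factors, Eif5a (282) and Eif5a2 (15.4) the eIF5A genes, Eef1b2 (1460) and Eef1a2 (6.32) the eEF1 complex, Eef2 (770) and Eef2k (12) the eEF2 list, and Eef1akmt1 (47) and Eef1akmt3 (1.3) the last list.

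Low levels of some abundant factors go with shared sequence. Of the 30-base words in the coding sequence of Eef1a1, 72.7% also occur in transcripts of other annotated genes, and the shares were 68.2% for Eef1g, 67.6% for Eif4a1, 54.7% for Eif3m and 43.4% for Eif3e. The 11 tested factors with at least 30% shared words had a median of 40 CPM per kilobase, against 141 in the 44 others. Eef1a1, the aminoacyl-tRNA carrier known as one of the most abundant proteins of dividing cells, read 246 CPM per kilobase. How the authors treated reads with several matches is not given in the sources used here, so levels of these 11 genes are uncertain, and the part of shared sequence in them was not tested.

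**Figure D1:**
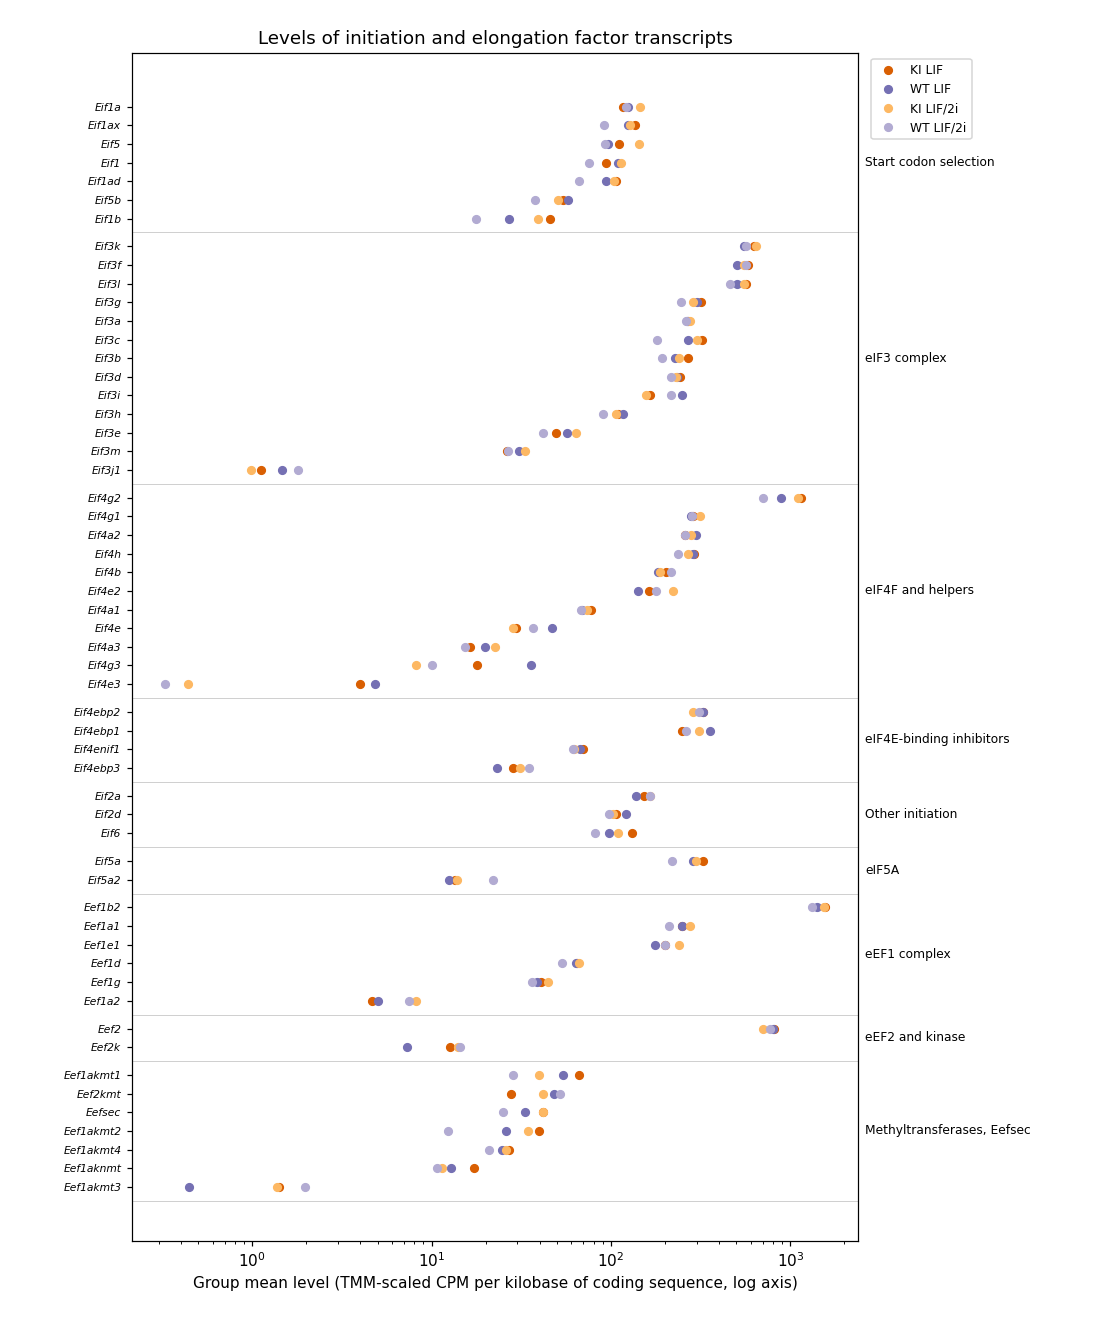
Group mean levels of the 55 tested factors in TMM-scaled CPM per kilobase of coding sequence (log axis), sorted by role and level, with 1 point per group. Eef1b2, Eif4g2 and Eef2 lie at the high end in all 4 groups, and Eif4e3 is far lower in LIF/2i than in LIF in both genotypes.

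As a share of all counts in a library, the 59 factors took 1.76, 1.73 and 1.79% in KI LIF, 1.67, 1.6 and 1.66% in WT LIF, 1.55, 1.65 and 1.71% in KI LIF/2i, and 1.45, 1.4 and 1.35% in WT LIF/2i. The KI libraries were above the WT libraries in each medium without overlap. Without Eif4g2, which alone took 0.159 to 0.348%, the shares were 1.44 to 1.45% in KI LIF, 1.34 to 1.43% in WT LIF, 1.26 to 1.4% in KI LIF/2i and 1.19 to 1.24% in WT LIF/2i. The groups still did not overlap, but in LIF the lowest KI share of 1.44% was then next to the highest WT share of 1.43%.

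**Figure D2:**
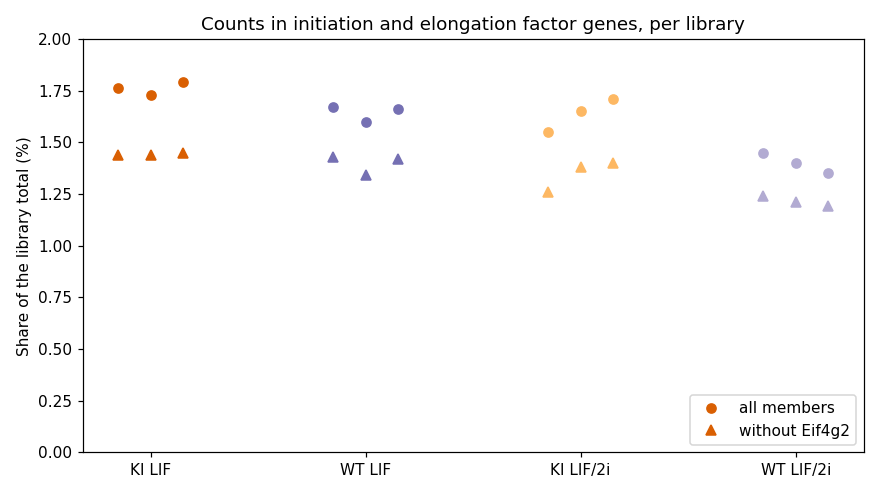
Share of each library's counts that fell in the 59 factors (circles) and in the factors without Eif4g2 (triangles), in percent, for the 3 libraries of each group. KI LIF/2i libraries lie at 1.55 to 1.71% and WT LIF/2i libraries at 1.35 to 1.45%.

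In LIF/2i, KI cells had more Eif1b and Eif4g2 RNA than WT cells, and these were the factors that passed the test. Eif1b, a close paralogue of the start codon fidelity factor eIF1, was 1.14 ± 0.24 higher on the log2 scale, and Eif4g2, which promotes initiation without eIF4E, 0.65 ± 0.14 (SE). At an unadjusted p under 0.05 there were 15 factors in either direction (27.3%, against 20.5% of all genes). By edgeR 2 of 55 (3.64%) were called higher, against 0.974% of the 13239 genes tested, and 0 were called lower, against 1.25%. Fold changes of the factors had a median of 0.23 and lay above 0 for 41 of 55 (74.5%), against a median of 0.02 and 52.1% over all genes. Without WT LIF/2i replicate 3 the factors' median was 0.14, with 40 of 55 above 0. The 3 KI samples lay wholly above the 3 WT samples for 16 factors (29.1%, against 11.7% of all genes) and wholly below for 1 (1.82%, against 11.1%). In the same LIF/2i samples the fibroblast markers summed to 10.5 to 24.9 CPM in KI and 4.13 to 6.38 CPM in WT, and the primitive endoderm markers to 51.9 to 66.8 CPM in KI and 92.3 to 186 CPM in WT. Their part in these results was not tested.

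Eif1b (chromosome 9, 120492491 to 120495330, plus strand, GRCm38) stood at 11.8, 12.9 and 15.1 CPM in KI LIF/2i, against 5.53, 6.93 and 5.47 CPM in WT LIF/2i (edgeR log2 fold change 1.14 ± 0.24, adjusted p = 0.0344). The lowest KI sample was well above the highest WT sample. These values rest on 90 to 113 counts per KI library and 18 to 52 per WT library. Only 0.3% of its 30-base words occur in another gene.

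Eif4g2 (chromosome 7, 111067750 to 111083030, minus strand) was at 2950, 2780 and 3330 CPM in KI LIF/2i, against 2240, 1950 and 1560 CPM in WT LIF/2i (edgeR 0.65 ± 0.14, adjusted p = 0.0407). The groups did not overlap. Both calls depended on the samples in the fit. With only the LIF/2i groups fitted the fold changes were 1.13 for Eif1b and 0.65 for Eif4g2 (edgeR adjusted p = 0.12 and 0.112). Without KI LIF/2i replicate 3 they were 1.03 and 0.57 (0.0974 and 0.112), and both calls were also lost without KI LIF/2i replicate 2, any WT LIF/2i library, KI LIF replicate 2 or 3, WT LIF replicate 2 or the agreeing WT LIF pair. DESeq2 called both (adjusted p = 0.00247 for Eif1b and 0.00289 for Eif4g2).

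All 7 genes of the start codon list lay above 0, with a median of 0.58, and Eif1b was the 1 called. Eif5, the GTPase activator that acts on eIF2 at the start codon, was next by p, at 182, 150 and 224 CPM in KI LIF/2i and 131, 117 and 108 CPM in WT LIF/2i (edgeR 0.64 ± 0.16, adjusted p = 0.0585). Eif1ad, an eIF1A domain-containing protein, was at 50.1, 57.8 and 51.4 CPM in KI LIF/2i and 33.2, 37.2 and 31.3 CPM in WT LIF/2i (edgeR 0.64 ± 0.16, adjusted p = 0.059). Neither gene's groups overlapped. Eif1, with 37.4% of its words shared with other genes, had 0.58 ± 0.25, and the X-linked scanning factor Eif1ax 0.49 ± 0.19 (edgeR adjusted p = 0.205 and 0.166). DESeq2 called Eif5 (0.62, adjusted p = 0.0138) and Eif1ad (0.62, adjusted p = 0.0112). Eif1ad was chosen for full values after these were seen.

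**Figure D3:**
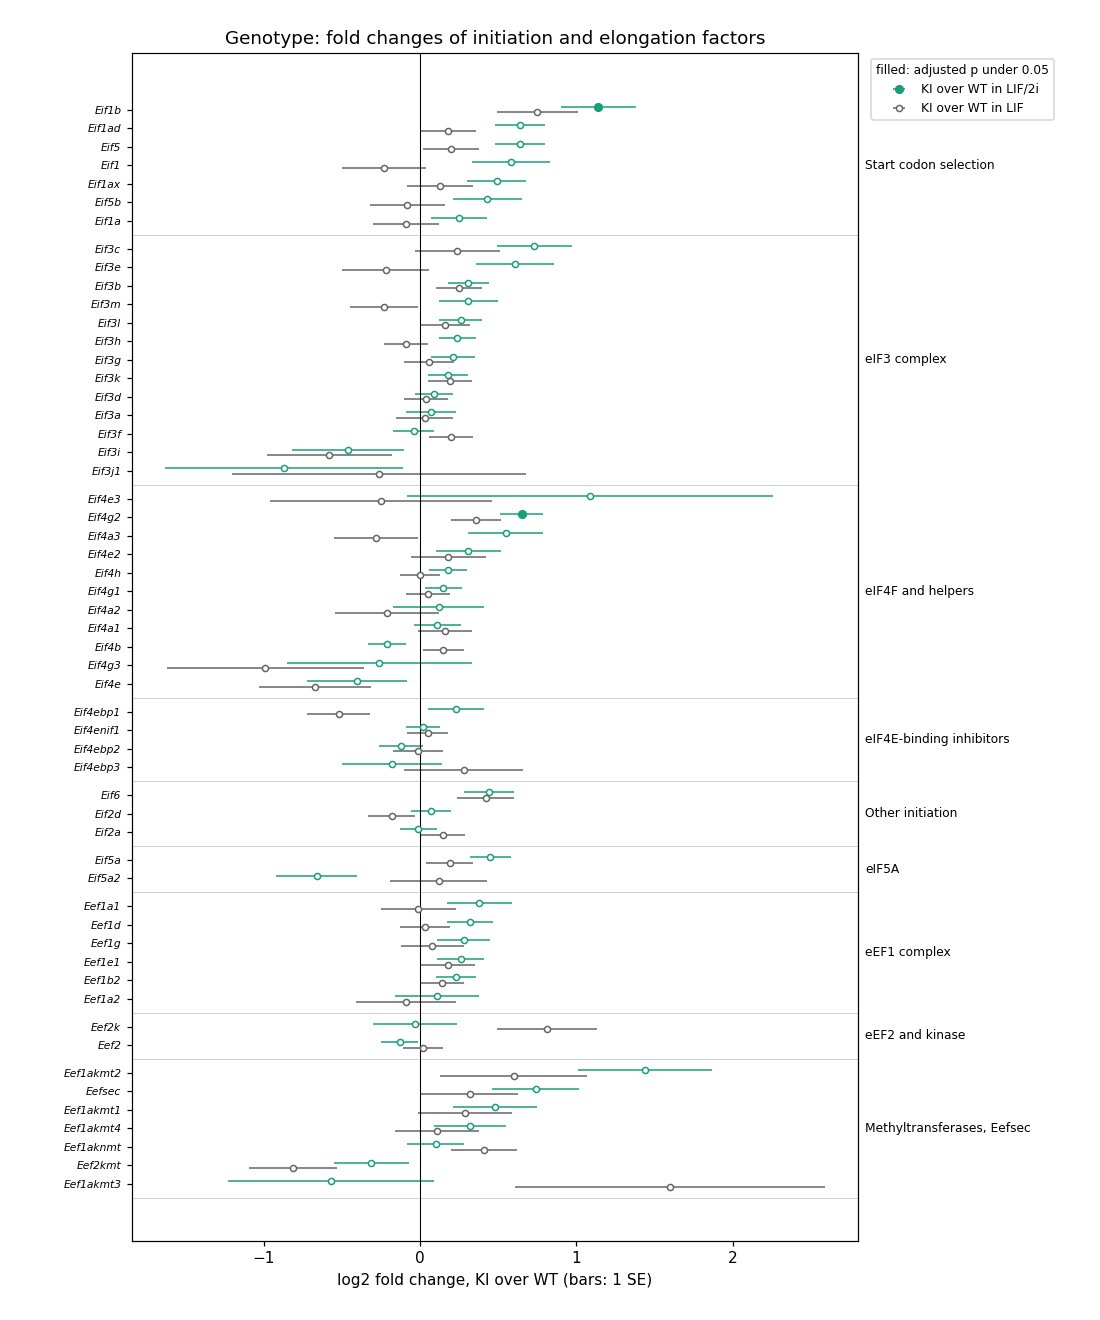
Log2 fold change of KI over WT for the 55 tested factors in LIF/2i (green) and LIF (grey) from edgeR, with bars of 1 SE and filled points for adjusted p under 0.05. Eif1b and Eif4g2 in LIF/2i are the filled points, and all 7 genes of the start codon list lie right of 0 in LIF/2i.

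Of 13 tested eIF3 genes 0 were called, with a median of 0.21 and a range of -0.87 to 0.73. Eif3a, the large scaffold subunit, had 0.07 ± 0.16, and Eif3j1, a loosely bound subunit with 0 to 14 counts per library, -0.87 ± 0.76 (edgeR adjusted p = 0.845 and 0.547). Eif3c, a core subunit, was at 517, 925 and 1020 CPM in KI LIF/2i and 523, 487 and 478 CPM in WT LIF/2i (edgeR 0.73 ± 0.24, adjusted p = 0.122). KI replicates 2 and 3 were high and KI replicate 1 was within the WT range. Without KI LIF/2i replicate 1, Eif3c had 0.95 (edgeR adjusted p = 0.0134).

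The eIF4F list had 11 tested genes with a median of 0.15. Eif4g2, which is in the list by symbol and lacks the part that binds eIF4E, was called. Eif4g1 had 0.15 ± 0.12 and the helicase genes Eif4a1 and Eif4a2 0.11 ± 0.15 and 0.12 ± 0.29 (edgeR adjusted p = 0.507, 0.694 and 0.846). Eif4e itself was at 15.7, 14.8 and 24.8 CPM in KI LIF/2i and 17.9, 36.2 and 17.9 CPM in WT LIF/2i (edgeR -0.40 ± 0.32, adjusted p = 0.503). WT replicate 2 was high, and the groups overlapped. Of the 4 eIF4E inhibitors 0 were called. Eif4ebp1, the best known target of mTOR among them, had 0.23 ± 0.18, and Eif4ebp2 -0.12 ± 0.14 (edgeR adjusted p = 0.492 and 0.674).

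Among the other initiation factors, Eif6, which keeps the ribosomal subunits apart, was at 84.7, 80.1 and 76.9 CPM in KI LIF/2i and 68.7, 55.4 and 54.1 CPM in WT LIF/2i (edgeR 0.44 ± 0.16, adjusted p = 0.151). Eif2a and Eif2d, which can bring initiator tRNA to the ribosome without eIF2, had -0.01 ± 0.12 and 0.07 ± 0.13 (edgeR adjusted p = 0.969 and 0.799).

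The eIF5A paralogues pointed opposite ways in LIF/2i, and neither passed. Eif5a, the widely expressed form, was at 137, 130 and 146 CPM in KI LIF/2i and 110, 99.4 and 92.1 CPM in WT LIF/2i (edgeR 0.45 ± 0.13, adjusted p = 0.0933). Eif5a2, the form known for narrow tissue expression, was at 5.95, 5.48 and 7.72 CPM in KI LIF/2i and 9.95, 11.3 and 8.82 CPM in WT LIF/2i (edgeR -0.66 ± 0.26, adjusted p = 0.179). Eif5a was above and Eif5a2 below its WT samples in every KI sample. Eif5a2 was the 1 factor whose KI samples lay wholly below the WT samples.

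The 6 eEF1 genes lay between 0.11 and 0.38 with 0 called, among them Eef1a1 (0.38 ± 0.21), its tissue-restricted paralogue Eef1a2 (0.11 ± 0.27) and the scaffold Eef1e1 of the tRNA synthetase complex (0.26 ± 0.15), with edgeR adjusted p = 0.336, 0.849 and 0.362. Eef2 had -0.13 ± 0.12, and Eef2k, the calcium-dependent kinase that inactivates it, -0.03 ± 0.27 (edgeR adjusted p = 0.565 and 0.967). Of the 7 genes of the last list 0 were called. Eef1akmt2, a methyltransferase of eEF1A, had the largest fold change of all tested factors, with 10.9, 27.1 and 37.9 CPM in KI LIF/2i and 8.85, 13.1 and 5.17 CPM in WT LIF/2i (edgeR 1.44 ± 0.43, adjusted p = 0.0984). Its KI replicate 1 lay within the WT range. Eef1akmt2 was chosen for full values after these were seen. Eefsec, which delivers selenocysteine to the ribosome, had 0.74 ± 0.28 (edgeR adjusted p = 0.167).

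**Figure D4:**
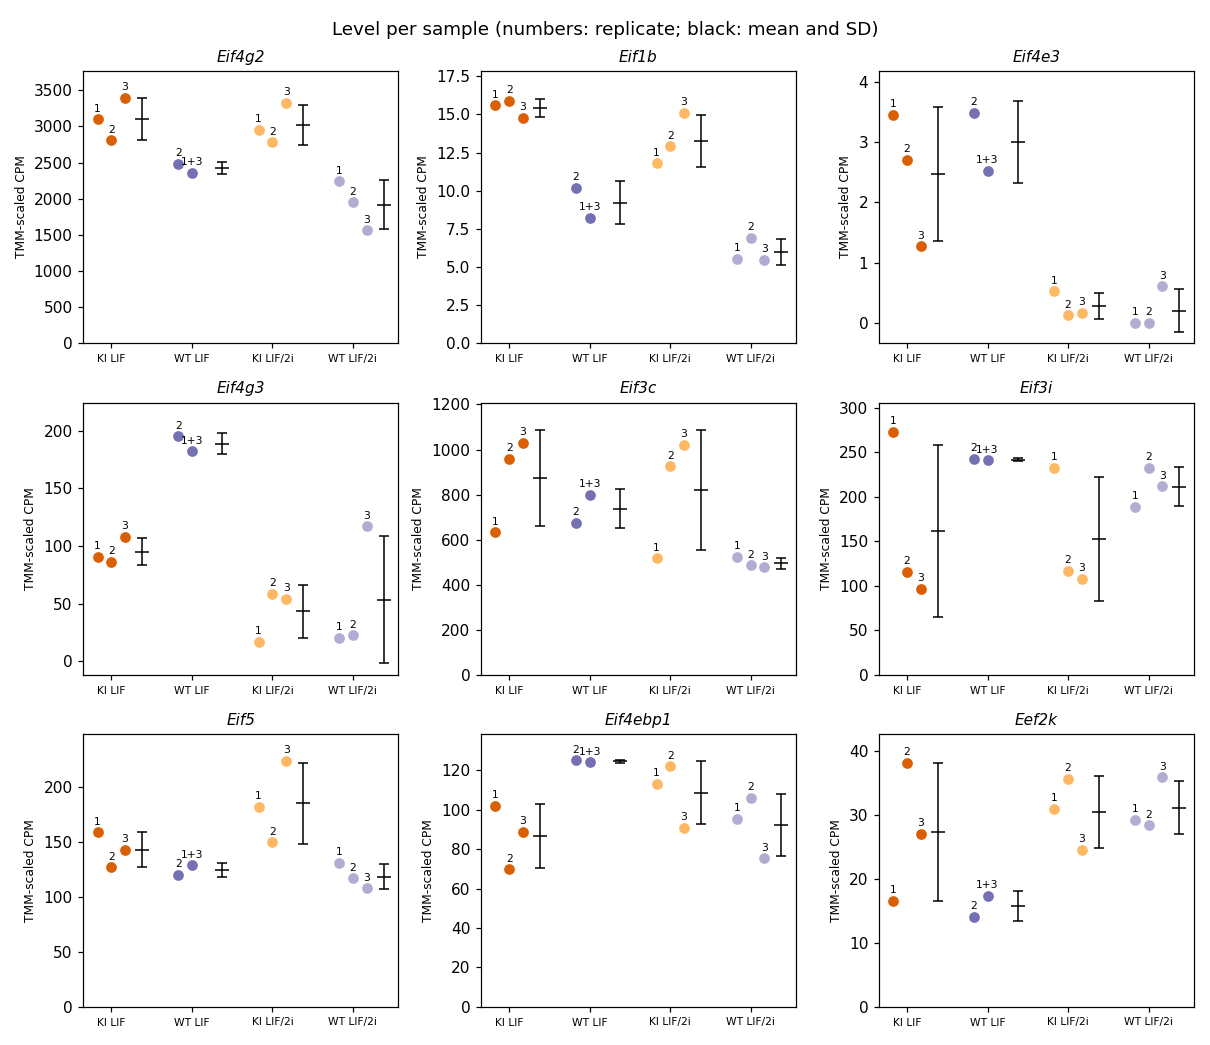
TMM-scaled CPM of 9 factors in each sample of the fit (points, numbered by replicate, with 1+3 for the agreeing WT LIF pair), with mean and SD in black. Eif4g2 and Eif1b lie higher in KI than in WT in both media, Eif4e3 is near 0 in LIF/2i, and KI replicate 1 stands apart for Eif3c and Eif3i.

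In LIF, 0 of 55 factors passed the test between genotypes in either direction, against 0.0151% of all genes higher and 0.128% lower. At an unadjusted p under 0.05 there were 6 factors (10.9%, against 10.7% of all genes), and DESeq2 and limma-voom also called 0. The median fold change was 0.08, against 0 over all genes, and with KI LIF replicate 1 left out it was 0.04, with WT LIF replicate 2 left out 0.03. KI samples lay wholly above WT samples for 11 factors (20%, against 16% of genes) and wholly below for 6 (10.9%, against 15.8%). Eif1b was at 15.6, 15.9 and 14.8 CPM in KI LIF, against 10.2 CPM in WT LIF replicate 2 and 8.22 CPM in the agreeing pair (edgeR 0.75 ± 0.26, adjusted p = 0.326). Eif4g2 was at 3100, 2810 and 3400 CPM in KI LIF and at 2480 and 2360 CPM in WT LIF (edgeR 0.36 ± 0.16, adjusted p = 0.455). Both genes lay above WT without overlap, as in LIF/2i, and neither difference was past the threshold. KI libraries of the same number deviate together across media, so the media are not independent here.

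The smallest p in LIF was that of Eef2kmt, the methyltransferase of eEF2, at 33.2, 24.4 and 25.8 CPM in KI LIF and 54.7 and 42.5 CPM in WT LIF (edgeR -0.81 ± 0.28, adjusted p = 0.312). Eif4ebp1 was at 102, 69.7 and 88.9 CPM in KI LIF and 125 and 124 CPM in WT LIF (edgeR -0.52 ± 0.20, adjusted p = 0.359). Both were lower in every KI sample without passing the test. Eef2k was at 16.6, 38.2 and 27.1 CPM in KI LIF and 14.1 and 17.4 CPM in WT LIF (edgeR 0.81 ± 0.32, adjusted p = 0.375), with KI replicate 1 inside the WT range. Eif4e had -0.67 ± 0.36 and Eif6 0.42 ± 0.18 (edgeR adjusted p = 0.541 and 0.433). Over all tested factors the range was -0.99 to 1.6.

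Eif4e3, an eIF4E family member that binds the cap in an atypical way, was higher in LIF than in LIF/2i in both genotypes and was the factor called in each. It had at most 5 counts in any LIF/2i library, so it passed the filter through its LIF libraries, where it is high, and a call after that selection is weak evidence. The fitted log2 fold change was 4.38 ± 0.97 in WT (edgeR adjusted p = 0.0127) and 3.04 ± 0.80 in KI (edgeR adjusted p = 0.0346). With no count filter edgeR gave 4.36 in WT and 3.02 in KI (adjusted p = 0.00861 and 0.0288). Fitted values of a gene this close to 0 counts depend on the prior count, and the WT LIF/2i group held 2 counts in all. By edgeR with the filter 1 of 55 factors (1.82%) was higher and 0 lower in each genotype, against 6.31% higher and 6.69% lower of all genes in WT and 4.05% and 5.01% in KI. DESeq2 called 2 factors higher and 1 lower in WT, against 7.7% and 9.01% of all genes, and 2 higher and 0 lower in KI, against 5.83% and 6.46%. The median fold change of the factors was 0.21 in WT (0.01 over all genes) and 0.04 in KI (-0.03 over all genes). In KI it ranged from -0.03 to 0.08 with a library left out, and fell below 0 without KI LIF replicate 1 or KI LIF/2i replicate 1.

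Eif4e3 (chromosome 6, 99625135 to 99666771, minus strand) was a very low transcript. It had 10, 13 and 3 counts in KI LIF and 5, 1 and 1 in KI LIF/2i, and 10, 23 and 22 counts in WT LIF replicates 1 to 3 and 0, 0 and 2 in WT LIF/2i. In CPM these were 3.46, 2.71 and 1.27 in KI LIF and 0.522, 0.125 and 0.168 in KI LIF/2i, and 3.49 and 2.53 in WT LIF and 0, 0 and 0.608 in WT LIF/2i. Per library total, the summed counts were 9.17 times higher in KI LIF than in KI LIF/2i (95% interval 3.88 to 25, counting error only) and 25.8 times higher in WT LIF than in WT LIF/2i (6.82 to 219). LIF samples were all above LIF/2i samples in both genotypes. The WT call was lost without WT LIF replicate 2 (4.11, edgeR adjusted p = 0.0899) or WT LIF/2i replicate 1 or 2 (0.0616 and 0.0568). The KI call was lost without any KI LIF library or KI LIF/2i replicate 2 or 3 (edgeR adjusted p = 0.057 to 0.113), without WT LIF replicate 2 (0.0555) or the agreeing pair (0.0539), and with only the KI groups in the fit Eif4e3 did not pass the count filter. Fibroblast markers summed to 36.1 CPM or more in every LIF sample and to at most 24.9 CPM in any LIF/2i sample, and reached 492 CPM in WT LIF. The summed primitive endoderm markers were also higher in LIF in both genotypes, but not every member was. In KI, Sox17 averaged 0.558 CPM in LIF and 1.11 CPM in LIF/2i, and Sox7 0.511 and 1.18 CPM. The other members had higher KI means in LIF. The part of either marker list in the Eif4e3 result was not tested.

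**Figure D5:**
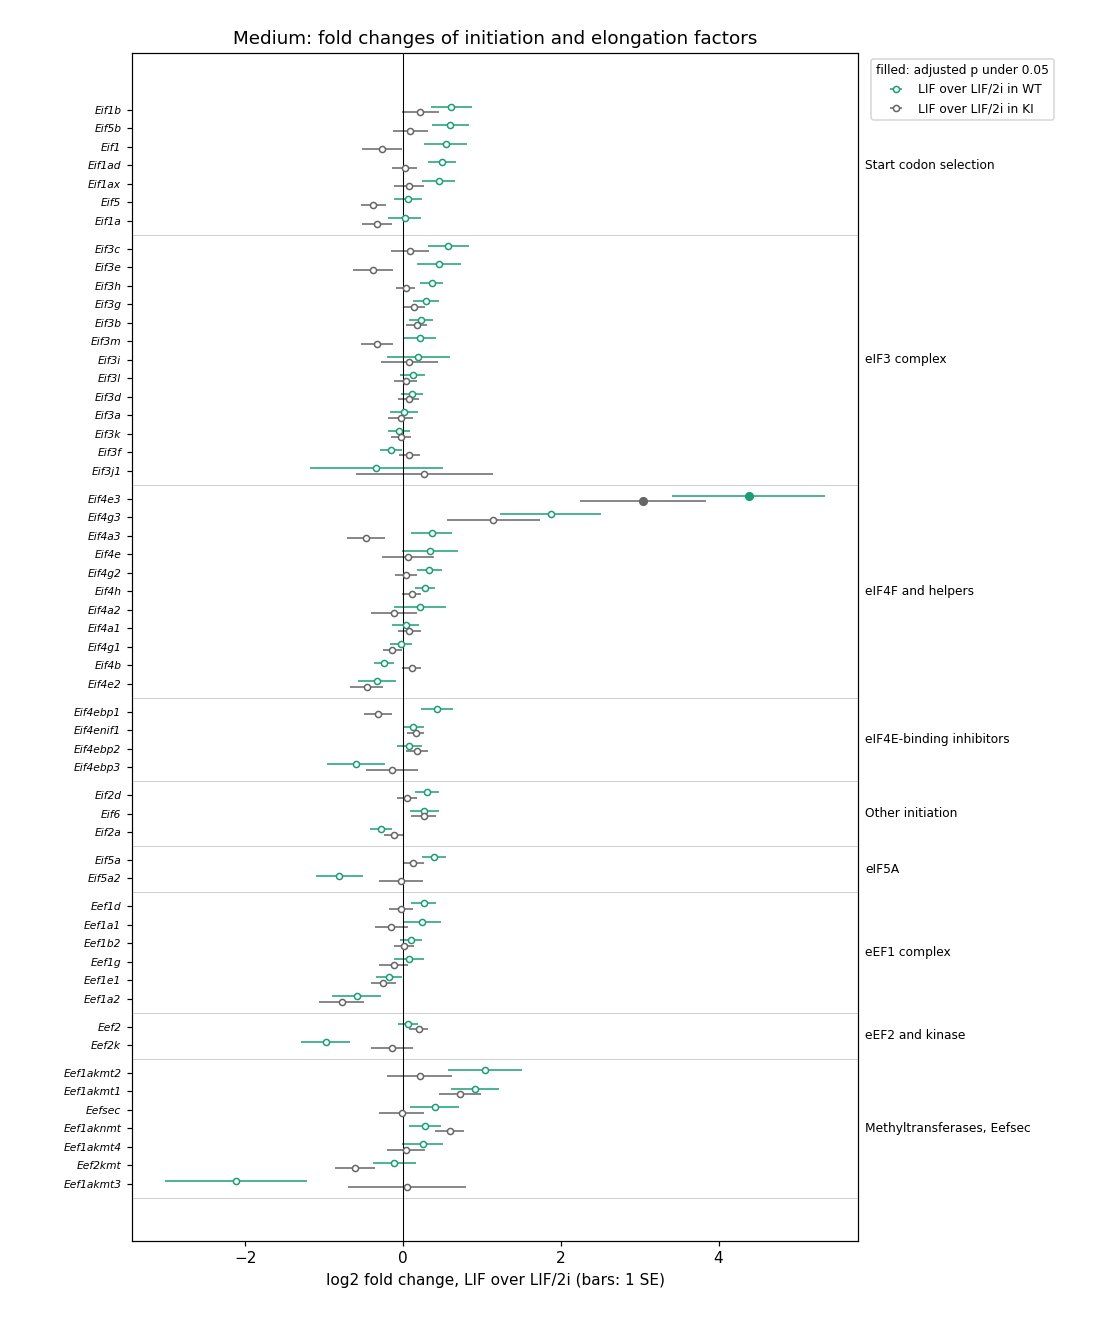
Log2 fold change of LIF over LIF/2i for the 55 tested factors in WT (green) and KI (grey) from edgeR, with bars of 1 SE and filled points for adjusted p under 0.05. Eif4e3, at 4.38 in WT and 3.04 in KI, is the filled point in both genotypes, with Eif4g3 next to it at 1.87 and 1.14.

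Several factors came near the threshold in 1 genotype, which does not mean that the genotypes differ. In WT, Eef2k was at 14.1 and 17.4 CPM in LIF and 29.2, 28.4 and 35.9 CPM in LIF/2i (edgeR -0.98 ± 0.31, adjusted p = 0.0595). Eef1akmt1, a methyltransferase of eEF1A, was at 44.7 and 27.5 CPM in WT LIF and 20.5, 20.9 and 15.8 CPM in WT LIF/2i (edgeR 0.91 ± 0.30, adjusted p = 0.0681). LIF was below LIF/2i for the kinase and above it for the methyltransferase, without overlap. In KI, Eef1akmt1 also lay higher in LIF without overlap (edgeR 0.72 ± 0.27, adjusted p = 0.127). The Eef2k groups overlapped there (edgeR -0.14 ± 0.27, adjusted p = 0.814). DESeq2 called both in WT (Eef2k -0.98, adjusted p = 0.0216, and Eef1akmt1 0.91, adjusted p = 0.0391).

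In KI, Eef1aknmt, another methyltransferase of eEF1A, was at 44, 29.6 and 34.7 CPM in LIF and 24.4, 23.2 and 24.2 CPM in LIF/2i (edgeR 0.59 ± 0.18, adjusted p = 0.0676). Eef1a2 was at 6.58, 7.72 and 5.08 CPM in KI LIF and 9.61, 12.5 and 11.9 CPM in KI LIF/2i (edgeR -0.78 ± 0.29, adjusted p = 0.115). Neither gene's groups overlapped. In WT both genes moved the same way without overlap (Eef1aknmt 0.28 ± 0.20, Eef1a2 -0.59 ± 0.31, edgeR adjusted p = 0.428 and 0.255). Fitted on the KI libraries alone with the replicate number as a block, Eef1akmt1 was higher in LIF (0.71, edgeR adjusted p = 0.0173) and Eif4e2, a cap-binding repressor, lower (-0.43, adjusted p = 0.0417), while Eif4e3 did not pass the count filter there. That fit called 8.4% of all genes higher and 8.22% lower. Eif4e2 was at 145, 107 and 126 CPM in KI LIF and 221, 143 and 152 CPM in KI LIF/2i, which overlap, and is named here because of that fit, after its values were seen.

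LIF samples lay wholly above LIF/2i samples for 25 factors in WT (45.5%, against 24.3% of genes) and for 5 in KI (9.09%, against 13.3%). They lay wholly below for 6 in WT (10.9%, against 24.5%) and 2 in KI (3.64%, against 13.9%). The WT comparison between media and the KI to WT comparison in LIF/2i use the same WT LIF/2i libraries, and in each of them 41 of 55 factors lay above 0. Those libraries are also the ones with the lowest shares of counts in the factors.

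Whether the genotype difference itself depended on the medium was tested as an interaction, for which edgeR called 0 factors and 0 genes. The median over the factors was -0.20, against -0.03 over all genes, and 41 of 55 lay below 0. Without KI LIF replicate 2, or without WT LIF/2i replicate 3, the factors' median was -0.11, with 19 of 55 above 0. At an unadjusted p under 0.05 there were 4 factors of 55 (7.27%), against 6.03% of all genes. Eif4ebp1 had the smallest p: its KI over WT fold change was 0.75 ± 0.27 lower in LIF than in LIF/2i on the log2 scale (edgeR adjusted p = 0.771). Eif4a3, the helicase of the exon junction complex, had -0.83 ± 0.36 and Eif1 -0.81 ± 0.37 (edgeR adjusted p = 0.818 each). Eif4a3 was at 21.1, 17.7 and 21.6 CPM in KI LIF, 18.5 and 30.3 in WT LIF, 21.3, 27.9 and 34.4 in KI LIF/2i and 18.5, 19.2 and 19.5 in WT LIF/2i. Its KI samples lay wholly above the WT samples in LIF/2i and overlapped them in LIF. DESeq2 called 0 factors, 9 genes higher and 13 lower.

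The spread of some factors followed libraries more than groups, and these genes are named after their values were seen. Eif3i, a WD-repeat subunit of eIF3, was at 273, 116 and 96.9 CPM in KI LIF, 243 and 241 in WT LIF, 233, 117 and 108 in KI LIF/2i and 189, 233 and 212 in WT LIF/2i. KI replicates 2 and 3 had less Eif3i than every other library in both media, and KI replicate 1 was at 273 and 233 CPM, above the lowest WT library of each medium. The KI over WT fold changes of -0.46 ± 0.36 in LIF/2i and -0.58 ± 0.40 in LIF did not pass (edgeR adjusted p = 0.492 and 0.656). Eif3c ran the other way in the same libraries, at 633, 959 and 1030 CPM in KI LIF and 676 and 800 in WT LIF. Eefsec was at 102, 55.9 and 59.7 CPM in KI LIF, 60 and 55.6 in WT LIF, 104, 65.9 and 49.5 in KI LIF/2i and 45.3, 48.8 and 37.1 in WT LIF/2i. Here KI replicate 1 was the high library in both media.

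Eif4g3, the least abundant eIF4G scaffold, was at 90.7, 86.4 and 108 CPM in KI LIF, 195 and 182 in WT LIF, 17, 58.6 and 54.1 in KI LIF/2i and 20.4, 22.5 and 117 in WT LIF/2i. Within each genotype Eif4g3 was higher in LIF than in LIF/2i without overlap. It was uneven in LIF/2i, where WT replicate 3 and KI replicate 1 were far from the others of their group. In LIF the KI samples lay wholly below the WT samples (edgeR -0.99 ± 0.63, adjusted p = 0.62). In WT the LIF over LIF/2i fold change was 1.87 ± 0.64 (edgeR adjusted p = 0.0758), and without WT LIF/2i replicate 3 it was 3.13 (0.00223). In KI it was 1.14 ± 0.59 (edgeR adjusted p = 0.272).

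Of 46 other genes of the translation machinery, all measured and all past the filter, 0 passed between genotypes in LIF/2i or LIF by edgeR. An unadjusted p under 0.05 was reached by 10 in LIF/2i (21.7%, against 20.5% of all genes) and 4 in LIF (8.7%, against 10.7%). DESeq2 called 2 higher and 1 lower in LIF/2i, against 3.06% and 3.86% of all genes, and 0 in LIF. Their LIF/2i median was 0.23, the same as that of the factors, with 35 of 46 above 0. Gfm1, the mitochondrial elongation factor G, was at 162, 203 and 202 CPM in KI LIF/2i and 127, 144 and 126 CPM in WT LIF/2i (edgeR 0.51 ± 0.13, adjusted p = 0.0596). Dph3, which acts in the diphthamide modification of eEF2, had 0.84 ± 0.22, and Gigyf2, a partner of the cap-binding repressor eIF4E2, -0.42 ± 0.11 (edgeR adjusted p = 0.0697 and 0.0738). In LIF the smallest p were those of Gigyf2 (-0.37 ± 0.13), Paip2, an inhibitor of the poly(A)-binding protein (-0.40 ± 0.16), and Gfm1 (0.35 ± 0.14), with edgeR adjusted p = 0.319, 0.402 and 0.414. In the interaction they were those of Dph3 (-0.74 ± 0.32), the mitochondrial initiation factor Mtif3 (-0.81 ± 0.35) and Denr, which acts in reinitiation (-0.49 ± 0.22), each with edgeR adjusted p = 0.818.

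Between media in WT cells, 2 of the 46 genes (4.35%) were called higher in LIF, a share below the 6.31% of all genes. None was called lower, against 6.69% of all genes. The 2 were the ribosome rescue factors Pelo and Hbs1l, which act as a pair on stalled ribosomes. Pelo was at 88.2 and 101 CPM in WT LIF and 48.7, 52.8 and 72.4 CPM in WT LIF/2i (edgeR 0.72 ± 0.20, adjusted p = 0.0333). Hbs1l was at 153 and 180 CPM in WT LIF and 121, 123 and 117 CPM in WT LIF/2i (edgeR 0.47 ± 0.14, adjusted p = 0.0497). The groups did not overlap for either gene. In KI both genes also lay higher in LIF without overlap (Pelo 0.46 ± 0.18, Hbs1l 0.36 ± 0.13, edgeR adjusted p = 0.146 and 0.108). The Pelo call was lost without KI LIF replicate 2 or 3, WT LIF replicate 2, the agreeing WT LIF pair or WT LIF/2i replicate 1 or 2 (edgeR adjusted p = 0.0515 to 0.208). The Hbs1l call was lost without those same libraries, without KI LIF replicate 1, KI LIF/2i replicate 2, WT LIF replicate 1 or WT LIF/2i replicate 3 (up to 0.329), with no count filter (0.0719), with limma-voom (0.054) and with DESeq2's size factors (0.0505). In KI cells Abcf3, an ATP-binding cassette protein related to the activators of the kinase Gcn2 in yeast, fell in LIF, at 58.5, 52.8 and 52 CPM in KI LIF and 74.8, 77.3 and 85.4 CPM in KI LIF/2i (edgeR -0.54 ± 0.13, adjusted p = 0.0202). Its groups did not overlap, and the call was lost without KI LIF replicate 2 or 3 (edgeR adjusted p = 0.0894 and 0.0918) and with only the KI groups in the fit (0.0737). Of the 46 genes, 1 was called lower and 0 higher in KI, against 5.01% and 4.05% of all genes. In WT, Abcf3 also lay lower in LIF without overlap (edgeR -0.33 ± 0.14, adjusted p = 0.149).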

How the data were processed

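The authors deposited 1 table of raw counts per gene for 12 libraries, with no normalization. Per the file headers, reads were counted over coding sequence, with 1 transcript for each gene. Tools named in the submitters' processing notes are Bowtie 1.3.0, UMI-tools 1.0.1 and cutadapt 3.4, with no roles. Not given in the sources used here are the genome build, annotation, strand and the handling of reads that match several places. Transcripts were matched by identifier to GENCODE release M21 (GRCm38), where 22155 of 22416 were found, for coordinates, coding length and 30-base words shared with other genes.

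Factors, role lists and the wider list were chosen with earlier results of these data known. Genes with enough counts (filterByExpr, minimum count 10) numbered 13239. TMM factors were 0.945 to 1.04. The model (edgeR 4.0.16 under R 4.3.3, robust glmQLFit) had a mean for each group and 11 samples, because WT LIF replicates 1 and 3 were counted as 1 with their mean, rounded. Two-sided quasi-likelihood F tests were adjusted over all genes after Benjamini-Hochberg, with a threshold of 0.05. The biological coefficient of variation was 0.234. The test was also run on counts simulated from the real means and spreads, and no result here rests on that run. Levels are TMM-scaled CPM computed here, and intervals cover counting error only.

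Genes named were those called in any contrast, the 3 with the smallest p in each, a panel of 25 factors, and the highest and lowest of each role list by level. Panel genes not called are given with fold changes in LIF/2i, and in other contrasts mostly by range, a departure from the rule made after the values were seen. Other genes with test results, Eif1ad and Eef1akmt2 among them, were chosen after their values were seen.

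Replicate numbers recur in every group. Deviations of same-numbered KI libraries across media correlated at 0.53, 0.4 and 0.24 for replicates 1, 2 and 3. KI LIF replicate 3 correlated about as much with KI LIF/2i replicate 2, at 0.23. The other unmatched KI pairs lay between -0.44 and 0.083. The numbers may therefore pair KI libraries, least clearly for replicate 3. This pairing comes from the data, since the labels state none. The main fit has no term for it, so its KI comparison of media and its interaction leave the pairing out. Only the fits with the replicate block use it. In no other comparison were all 3 pairs over 0.1.

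Alternatives were DESeq2 1.42.0, limma-voom (limma 3.58.1), library totals, DESeq2's size factors, no count filter, 12 libraries counted separately, the agreeing pair summed, only the groups compared, the replicate block and leaving out each library. The block on KI libraries alone was added after seeing the data.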

Additional observations from a re-analysis of the deposited data

How the results depend on the processing

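The number of factors called moved with the fit while directions mostly held. KI against WT in LIF/2i gave 2 called factors, 4 with 12 libraries counted separately, 6 with DESeq2, 3 with library totals or no count filter, 0 with only the groups compared and 0 to 5 with a library left out. It gave 5 without KI LIF/2i replicate 1, where 3.59% of all genes were called higher and 3.99% lower. The share of all genes called moved too, from 0.974% higher and 1.25% lower to 3.06% and 3.86% with DESeq2, 1.84% and 2.19% with 12 libraries, 1.06% higher with library totals, 0.799% and 0.973% with no filter and 0.236% and 0.292% with only the groups compared. In LIF the count was 0, and 1 with only the groups compared (Eif4g3, lower, -1.01, edgeR adjusted p = 0.0487). That fit called 0.0733% of all genes higher and 0.179% lower. LIF against LIF/2i in WT gave 1, then 7 with 12 libraries, 3 with DESeq2 or library totals, 2 with limma-voom, 4 with only the groups compared and 0 to 3 with a library left out, where all genes had 6.31% higher and 6.69% lower, then 9.56% and 11.5%, 7.7% and 9.01% (DESeq2), 7.24% and 5.4% (library totals), 6.83% and 6.93%, and 7.64% and 9.12%. In KI it gave 1, then 2 with 12 libraries, DESeq2 or library totals, 0 with only the groups compared and 0 to 1 with a library left out, where all genes had 4.05% and 5.01%, then 5.01% and 5.94%, 5.83% and 6.46% (DESeq2), 4.46% and 4.08% (library totals), and 2.93% and 3.26%. The interaction gave 0 throughout. With the replicate block over 12 libraries, 4 were called in KI against WT in LIF/2i and 8 in LIF against LIF/2i in WT (all genes 1.93% higher and 2.44% lower, and 10.2% and 11.9%), and with the replicate block on KI libraries alone 2 in KI, named in the report.

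Of 1904 alternative values for single genes, 1771 were unchanged, 61 passed the threshold newly, 52 no longer passed and 20 changed sign. The 20 had not been called. Unchanged means the same direction and side of the threshold for a fold change. For a level per kilobase it means a shift within the mean SD of the groups. Fold changes made up 85 of the 120 results behind these values. With a library left out, KI against WT in LIF/2i ranged from -0.18 to 0.10 for Eef2k, -0.68 to 1.00 for Eif4g3, -0.07 to 0.21 for Eef1a2, -0.67 to 0.02 for Eif4e, -0.27 to 0.41 for Eif4a2, -0.10 to 0.18 for Eif3a, -0.11 to 0.03 for Eif2a and -0.05 to 0.16 for Eif2d. LIF against LIF/2i in KI ranged from -0.03 to 0.12 for Eif4g2, -0.49 to 0.11 for Eef2k and -0.13 to 0.12 for Eif5a2. Other fits turned Eif4g3 in KI against WT in LIF/2i to 0.17 (limma-voom) and Eif5a2 in KI to 0.05 (library totals) and 0.02 (limma-voom). The cause of these shifts was not tested. Depth limits Eif4e3, Eif3j1 and Eef1akmt3, which averaged under 10 counts per library.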
